A study of Homo sapiens with 6 samples.

Results

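The amino acid response mRNAs and the mRNAs of cytosolic tRNA synthetases were followed through 6 libraries of reverse transcriptase (RT) stops from U2OS cells, a human osteosarcoma line. The 36 genes were chosen by name as known members of these groups, and each was represented by its RefSeq transcript among the 15739 transcripts of the deposited tables. All 36 had a listed stop in at least 1 library, and 35 had one in every library. Each condition was 1 library, so no difference has a replicate check, no p-value was calculated, and every interval given covers counting error only. Untreated poly(A)+ RNA was reverse transcribed in 150 mM Na+ or in 150 mM K+ by the labels. The paper's results also compare K+ with Na+, whereas its methods name Li+ in place of Na+, and which was used cannot be told apart here. Other poly(A)+ RNA was refolded and modified with dimethyl sulfate (DMS) in vitro in 150 mM K+ or in 150 mM Li+. For the in vivo libraries, cells in growth medium (unstressed) or cells kept for 2 h in Hank's balanced salt solution (starved) received 8% DMS for 5 min. This solution holds salts and glucose but neither amino acids nor serum, so starvation removed both together. The 4 libraries with DMS were all reverse transcribed in 150 mM K+. The labels do not say in which state the cells behind the untreated and in vitro RNA were.

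Cells sense a lack of amino acids through uncharged tRNAs, which activate the kinase GCN2. Phosphorylation of the initiation factor eIF2 then lowers translation of most mRNAs and raises that of ATF4, a transcription factor whose targets take up amino acids, make them and charge them onto tRNAs. ATF4 targets also include other regulators, such as DDIT3 (CHOP), ATF3 and TRIB3, and proteins that restrain growth signalling, such as DDIT4 and SESN2. Aminoacyl-tRNA synthetases attach each amino acid to its tRNA, and several of their genes are themselves ATF4 targets.

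ATF4 and its C/EBP partners bind composite elements whose core reads TGATGNAA. This core was searched on both strands in the RefSeq promoters of assembly GRCh38.p14, from 250 bases before to 50 bases after each gene start, since such elements are where the group is known to be controlled. Of the 36 members, 31 matched a promoter by symbol, and 13 of these (41.9%) held the core in at least 1 promoter, against 1217 of 27305 genes (4.46%). Counted by promoter, it was in 13 of 47 member promoters (27.7%) and in 1270 of all 35116 (3.62%). The windows below were chosen to show the core in a biosynthetic enzyme, an effector, a transcription factor, a transporter and 2 synthetases, with the core in capitals and the strand that carries it printed 5′ to 3′.
ASNS, promoter chr7:97872359-97872658, minus strand gene: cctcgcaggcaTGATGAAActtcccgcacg
CHAC1, promoter chr15:40953221-40953520, plus strand gene: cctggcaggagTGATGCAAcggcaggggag
ATF3, promoter chr1:212565157-212565456, plus strand gene: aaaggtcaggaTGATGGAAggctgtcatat
SLC7A1, promoter chr13:29595639-29595938, minus strand gene: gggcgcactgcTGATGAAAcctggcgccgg
TARS1, promoter chr5:33440715-33441014, plus strand gene: gctggaccagcTGATGCAAtcgaaaggcgc
MARS1, promoter chr12:57487818-57488117, plus strand gene: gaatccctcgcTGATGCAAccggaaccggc
The other members with the core were GARS1, IARS1, CARS1, AARS1, NARS1, SLC3A2 and SLC1A5. A match describes these letters only and is not a measured binding site.

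The deposited tables list a nucleotide with at least 3 stops. The listed stops summed to between 12999691 in unstressed and 35371061 in the untreated library labelled K+, and members held 0.637% to 0.646% of them in the 4 libraries made from RNA outside cells, 0.500% in unstressed and 0.537% in starved cells. Because of the listing limit, a sparse mRNA loses most of its stops, and its fold change on listed stops is then too large. The deposited ratio of each nucleotide to the mean of its base in the transcript allowed the mean over all nucleotides of that base to be recovered and its total stops to be rebuilt, provided that at least 1 nucleotide of the base was listed. A level below is in rebuilt stops per kb of mRNA length and per 1000000 stops, scaled to the rebuilt total of the library, and it counts only the bases that were listed in both in vivo libraries. All 4 bases entered for 25 of the 35 members, and for the other 10 the bases are named beside the value. A fold change is the ratio of the shares of rebuilt stops over the same bases. Over 33 members, without DDIT3 and CHAC1, the SD of this log2 ratio was 0.09 between the untreated libraries and 0.06 between the in vitro libraries. In either pair 0 members differed by 1.5-fold or more, beside 0.22% of all transcripts in the untreated and 0.02% in the in vitro pair. Between starved and unstressed cells the SD was 1.18 over 35 members, and 25 differed by at least 1.5-fold, beside 63.1% of all transcripts. In bulk RNA, a change of an mRNA in every cell cannot be told apart from a change in the number of cells that hold it. Starvation also cannot be told apart from any other difference between the 2 in vivo libraries.

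The osteosarcoma cells carried mesenchymal markers, with VIM at 2987 to 3827 listed stops per 1000000 and SPARC, COL1A1, TGFBI, LGALS1, FN1 and THY1 listed in every library. COL1A2 was at 0 in all 6 libraries and RUNX2 was at 4.47 to 17.3 listed stops per 1000000. In starved cells COL1A1, SPARC, FN1, THY1 and VIM were at their lowest of the 6 libraries (COL1A1 at 126 against 651 to 749), LGALS1 and RUNX2 were at their highest (LGALS1 at 1500 against 741 to 1322) and TGFBI was within the range of the others. The part of these shifts in the members' results was not tested. Of the 8 markers of other cell types, CD3E, ALB and AFP were at 0 in all 6 libraries, and EPCAM reached at most 2.29 listed stops per 1000000.

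On listed stops, 14 of the 35 members with at least 100 stops in the 2 in vivo libraries together were at least 1.5-fold higher in starved cells, beside 33.0% of all 8572 transcripts, and 14 were at least 1.5-fold lower, beside 43.1%. On rebuilt totals, 12 members were higher, beside 22.9% of 8020 transcripts, and 13 were lower, beside 40.2%. Whether the members differ from the background in these counts was not tested. The median log2 ratio was -0.16 for the members and -0.24 for all transcripts. Of the 35 members, 5 had fewer than 100 listed stops in unstressed cells and passed the minimum only with the starved library (DDIT3, CHAC1, DDIT4, SESN2 and VLDLR), and 1 (TRIB3) passed only with the unstressed library.

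The ratio followed the GC content of the transcript. Its median over all transcripts fell from 0.75 (log2) at a GC content of up to 40% to -1.64 above 60%, and over the 8020 transcripts Spearman's correlation of ratio and GC content was -0.80, a description of transcripts that share the same 2 libraries. Relative to the untreated library labelled K+, the level rose with GC content in unstressed cells (Spearman's correlation 0.75) and fell with it in starved cells (-0.49). Over the 35 members the correlations were -0.58 for starved over unstressed cells, 0.81 for unstressed cells and -0.28 for starved cells over the same untreated library. Whether GC content contributes to any member's ratio was not tested. The ratios are therefore given also after subtraction of a smooth curve of the ratio on GC content over all transcripts, an adjustment added after these values were seen. After it, 11 members were at least 1.5-fold higher in starved cells, beside 17.6% of all transcripts, and 2 were lower, beside 15.8%. The members' median was then 0.35 and that of all transcripts was -0.01. The 11 were DDIT3, CHAC1, DDIT4, ASNS, CEBPB, SESN2, SLC7A11, SLC3A2, ATF4, VLDLR and CARS1, and the 2 were WARS1 and ALDH18A1. Of the 11, DDIT3, CHAC1, DDIT4, SESN2 and VLDLR had passed the minimum only with the starved library. Whether the members differ from the background after the adjustment was not tested.

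**Figure D1:**
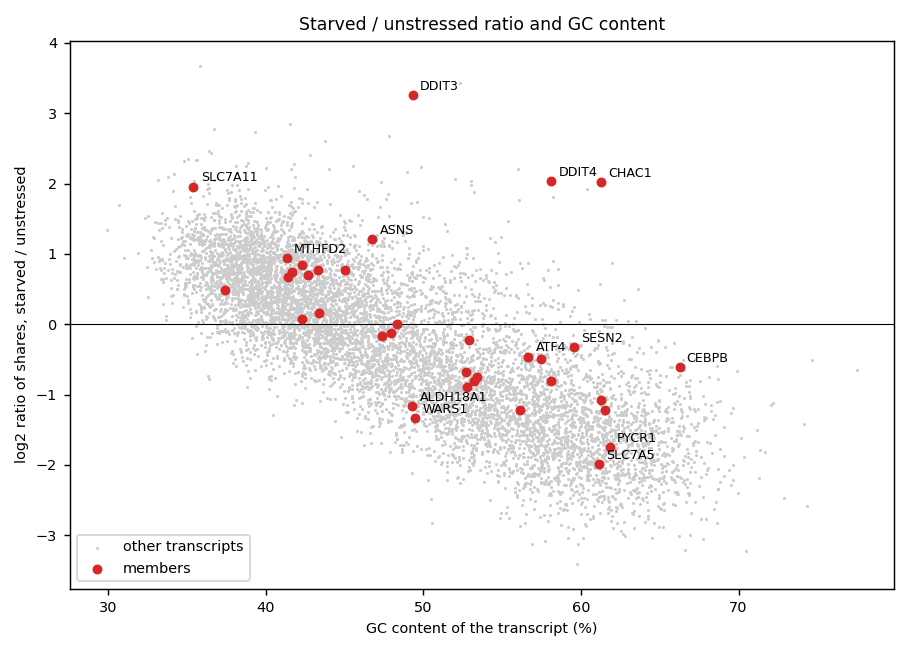
Each point is a transcript, with its GC content in % on the horizontal axis and the log2 ratio of its share of rebuilt stops in starved over unstressed cells on the vertical axis. Most of the 35 members (red) lie within the falling cloud of all transcripts (grey), and DDIT3, DDIT4 and CHAC1 stand farthest above it at 3.27, 2.03 and 2.02.

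ATF4, the transcription factor at the head of the response, was the most abundant member in unstressed cells. Its level was 170 and 174 in the untreated libraries labelled Na+ and K+, 176 with K+ and 173 with Li+ in vitro, 222 in unstressed cells and 161 in starved cells. The share was thus 1.38-fold lower in starved cells (log2 -0.46, interval -0.51 to -0.42), and the direction turned after the GC adjustment to 0.80, since transcripts within 2.5 percentage points of its GC content (56.7%) had a median of -1.28. ATF4 lies on chr22:39916569-39918688 of GRCh37 (hg19), plus strand, in 2 exons.

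ATF3, a repressor and activator of the same family, had levels (A, C and G) of 14.2 and 12.3 without DMS, 12.9 and 12.1 in vitro, 16.7 in unstressed cells and 15.3 in starved cells. Its ratio of -0.12 (interval -0.29 to 0.04) was not resolved from 0 at this depth, and it was 0.17 after the adjustment.

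DDIT3, which encodes the C/EBP family regulator CHOP, had the largest ratio of the 35 members. It had 23 and 29 listed stops without DMS, 6 and 21 in vitro, 4 in unstressed and 1844 in starved cells. The starved library stood apart from the other 5, with 331 listed nucleotides against 1 in unstressed cells. Only stops at A could be compared between the in vivo libraries. Over A, its level was 6.01, 4.79, 5.24 and 4.08 in the first 4 libraries, 7.44 in unstressed cells and 71.2 in starved cells, a 9.63-fold higher share (interval 7.69 to 12.2). Transcripts of similar GC content (49.3%) had a median log2 ratio of -0.49, and the adjusted ratio of DDIT3 was 3.73. The last 64 bases of DDIT3 (chr12:57910372-57914300, minus strand, 4 exons) overlap the end of MARS1 on the other strand, and 130 of the 1844 starved stops fell there.

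CEBPB, a partner of ATF4 on composite elements, was at 23.1 and 21.7 without DMS, 23.7 and 25.1 in vitro, 36.1 in unstressed cells and 23.6 in starved cells. The starved value lay among those outside cells, and the unstressed value was the highest. Its ratio was -0.61 (interval -0.73 to -0.49) before the adjustment and 1.13 after it, at a GC content of 66.2%.

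DDIT4 (REDD1), an inhibitor of mTORC1 signalling, was 4.08-fold higher in starved cells (interval 3.57 to 4.69). Its level over A and C was 6.92 and 6.54 without DMS, 7.46 and 8.08 in vitro, 9.98 in unstressed cells and 40.8 in starved cells. The 5 other libraries lay within 6.54 to 9.98. Transcripts of similar GC content (58.1%) had a median log2 ratio of -1.39, whereas DDIT4 had 2.03 and, adjusted, 3.41.

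CHAC1, which degrades glutathione, was listed with 9 and 16 stops without DMS, 3 and 19 in vitro, 7 in unstressed and 336 in starved cells. All 7 stops in unstressed cells were at C, so only this base could be compared. Over C, its level was 4.60 and 4.58 without DMS and 5.62 in vitro in Li+, and no C was listed in vitro in K+. It was 9.45 in unstressed cells and 38.3 in starved cells, a 4.04-fold higher share (interval 3.07 to 5.40; adjusted log2 ratio 3.58).

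TRIB3, a pseudokinase that feeds back on ATF4, had 58 listed stops in starved and 168 in unstressed cells. Its level (A, C and G) was 10.97 and 9.31 without DMS, 10.2 and 11.5 in vitro, 15.3 in unstressed cells and 6.55 in starved cells, and starved was the lowest of the 6. The share was 2.33-fold lower (log2 -1.22, interval -1.41 to -1.04), and after the adjustment the sign turned to 0.35.

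SESN2, a leucine-binding inhibitor of mTORC1, depended on the scale. Its listed stops were 38 in unstressed and 127 in starved cells, a log2 ratio of 0.86, while the rebuilt ratio was -0.33 (interval -0.55 to -0.11) and the adjusted one 1.15. Its level over A and C was 5.46 and 5.03 without DMS, 5.52 and 5.08 in vitro, 6.39 in unstressed cells and 5.10 in starved cells.

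**Figure D2:**
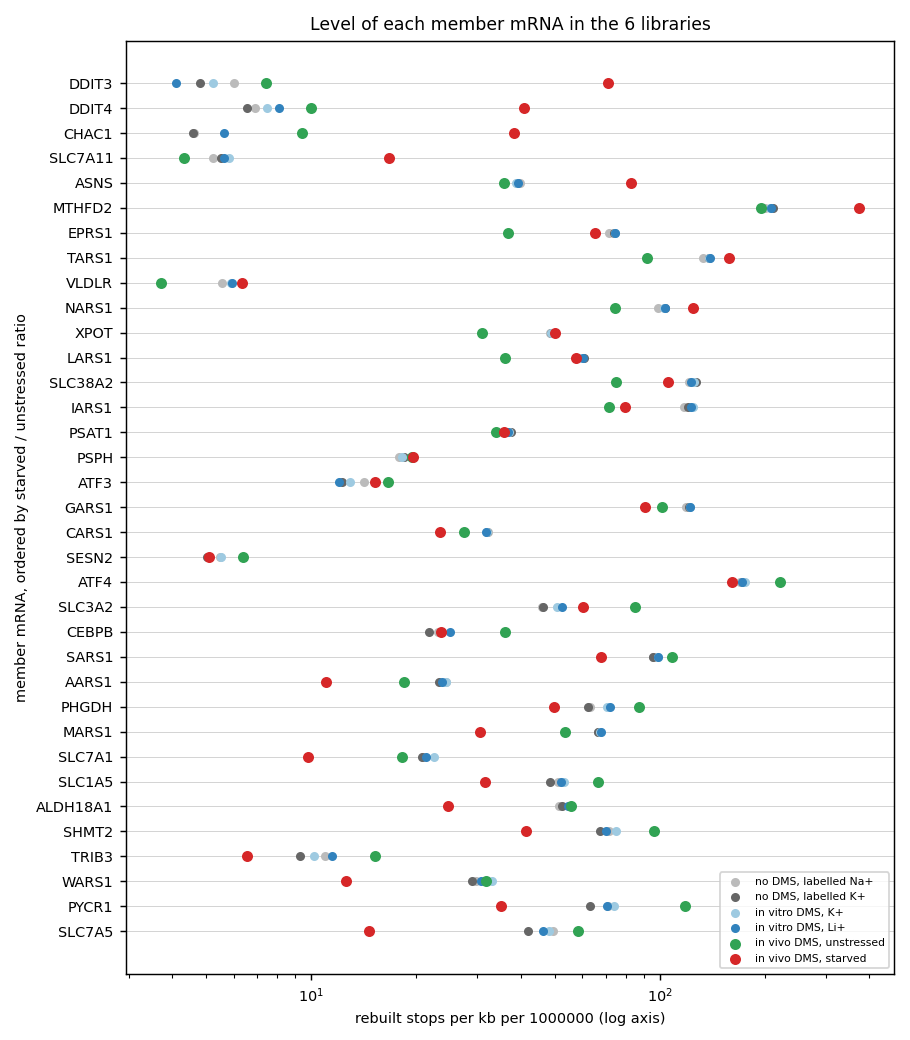
The level of each of 35 members, in rebuilt stops per kb per 1000000 on a log axis and over the bases listed in both in vivo libraries, is plotted for the 6 libraries, with members ordered by their starved over unstressed ratio. Starved cells (red) stand apart at the top for DDIT3 at 71.2, DDIT4 at 40.8 and CHAC1 at 38.3, and below the other libraries for SLC7A5 at 14.7.

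ASNS, which makes asparagine and is a standard ATF4 target, was 2.32-fold higher in starved cells (interval 2.18 to 2.46). Its level (A, C and G) was 39.8 and 39.0 without DMS, 38.8 and 39.2 in vitro, 35.8 in unstressed cells and 83.0 in starved cells. The 5 libraries without starvation stayed within 35.8 to 39.8. The adjusted log2 ratio was 1.36 beside 1.21 unadjusted.

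Among the enzymes of serine and one-carbon metabolism, MTHFD2 alone was at least 1.5-fold higher, beside 22.9% of all transcripts. MTHFD2, the mitochondrial folate enzyme, had levels of 201, 211, 207 and 208 outside cells, 196 in unstressed and 374 in starved cells, and its share was 1.91-fold higher (interval 1.86 to 1.96). Its adjusted log2 ratio of 0.48 fell short of 1.5-fold. PHGDH, the entry enzyme of serine synthesis, was at 62.2 to 72.1 outside cells, 87.3 in unstressed cells and 49.7 in starved cells (log2 -0.81, adjusted 0.56). SHMT2, which passes a carbon from serine to folate, was at 67.3 to 75.1 outside cells, 96.2 in unstressed cells and 41.3 in starved cells (-1.22), and after the adjustment at -0.00. PSAT1 and PSPH, which complete serine synthesis, had ratios of 0.08 (interval -0.02 to 0.18) and, over A, C and G, 0.00 (interval -0.14 to 0.15), with adjusted values of -0.27 and 0.34.

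Both members that serve proline synthesis were at least 1.5-fold lower in starved cells, beside 40.2% of all transcripts. After the adjustment only ALDH18A1 was, beside 15.8%. PYCR1 had levels of 71.0, 63.1, 73.8 and 70.4 outside cells, 118 in unstressed and 35.0 in starved cells, a 3.37-fold lower share. Its adjusted log2 ratio was -0.17, against -1.75 unadjusted. ALDH18A1 had levels of 51.5 to 55.5 in the 5 other libraries and 24.7 in starved cells, a 2.25-fold lower share that stayed at -0.70 (log2) after the adjustment. Its GC content was 49.3%.

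The transporters moved in both directions. SLC7A11, the cystine importer, had levels of 5.23, 5.52, 5.81 and 5.63 outside cells, 4.32 in unstressed and 16.8 in starved cells, and its share was 3.88-fold higher (interval 3.59 to 4.21; adjusted 2.07-fold). SLC7A5, the large neutral amino acid exchanger (LAT1), was at 49.5, 41.9, 48.1 and 46.2 outside cells, 58.2 in unstressed and 14.7 in starved cells. This was the lowest ratio of the 35 members at 3.97-fold lower (log2 -1.99, interval -2.07 to -1.91), with -0.43 after the adjustment at a GC content of 61.1%. SLC3A2, the heavy chain that carries both to the membrane, was at 46.0 to 52.4 outside cells, 85.0 in unstressed cells and 60.2 in starved cells, a ratio of -0.50 that turned to 0.83 when adjusted. SLC38A2, the stress-regulated importer of small neutral amino acids, was at 122 to 127 outside cells, 75.1 in unstressed cells and 105 in starved cells (log2 0.49, adjusted -0.28). SLC1A5, a glutamine transporter, was at 48.4 to 53.3 outside cells and at 66.6 and 31.5 in the in vivo libraries (-1.08, adjusted 0.48). SLC7A1, which imports cationic amino acids, was at 20.8 to 22.6 outside cells and at 18.2 and 9.78 in the in vivo libraries (-0.90, adjusted -0.03).

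Of the 11 cytosolic synthetases among the members, 4 were at least 1.5-fold higher in starved cells, 4 were lower and 3 were neither, beside 22.9% higher and 40.2% lower among all transcripts. The 4 higher ones were EPRS1 for glutamate and proline (1.79-fold, interval 1.71 to 1.86), TARS1 for threonine (1.71-fold, 1.65 to 1.77), NARS1 for asparagine (1.68-fold, 1.61 to 1.74) and LARS1 for leucine (1.59-fold, 1.53 to 1.66). All 4 had a GC content between 41.4% and 43.3%, and after the GC adjustment none was past 1.5-fold, with log2 ratios of 0.49, 0.53, 0.33 and 0.23 in the same order. After adjustment for both GC content and length, EPRS1 (0.68) and TARS1 (0.64) were past it again, while NARS1 (0.45) and LARS1 (0.43) were not. For EPRS1 the level was 71.6, 73.8, 74.3 and 74.5 outside cells, 36.6 in unstressed and 65.5 in starved cells, so the starved level lay nearer to the libraries outside cells than the unstressed level did. The same was seen for LARS1, at 57.6 to 60.5 outside cells, 36.1 in unstressed and 57.4 in starved cells. For TARS1 the starved level of 158 exceeded the 133 to 140 outside cells, as did that of NARS1 with 125 against 99.2 to 104.

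The 4 lower synthetases were WARS1 for tryptophan, MARS1 for methionine, AARS1 for alanine and SARS1 for serine. WARS1 had levels of 29.8, 28.9, 33.1 and 30.7 outside cells, 31.7 in unstressed and 12.6 in starved cells, and its share was 2.52-fold lower (log2 -1.34, interval -1.46 to -1.22). It stayed lower after the adjustment, at -0.85. MARS1 was at 66.3 to 67.7 outside cells, 53.7 in unstressed cells and 30.6 in starved cells (-0.81). AARS1, over A and C, was at 23.3 to 24.4, 18.5 and 11.1 (-0.74), and SARS1 at 95.6 to 99.2, 109 and 67.9 (-0.68). Their adjusted ratios were 0.11, 0.20 and 0.19. GARS1, IARS1 and CARS1, for glycine, isoleucine and cysteine, had ratios of -0.16, 0.16 and -0.23 (adjusted 0.05, -0.09 and 0.66), and CARS1 was the only synthetase past 1.5-fold in the upward direction after the adjustment (1.58-fold).

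XPOT, which exports tRNAs from the nucleus, was at 48.4, 48.8, 48.7 and 50.1 outside cells, 30.8 in unstressed and 50.3 in starved cells (1.63-fold, interval 1.55 to 1.71; adjusted 1.31-fold). VLDLR, a lipoprotein receptor, had a level over A and C of 3.71 in unstressed cells and 6.36 in starved cells, with 15 and 142 listed stops (1.71-fold, interval 1.41 to 2.08; adjusted 1.65-fold). Its level was 5.55 in the untreated library labelled Na+ and 5.90 and 5.95 in vitro, and no C was listed in the untreated library labelled K+. STC2, a secreted glycoprotein, had 3, 8, 0, 3, 0 and 0 listed stops in the same order of libraries and was not compared.

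**Figure D3:**
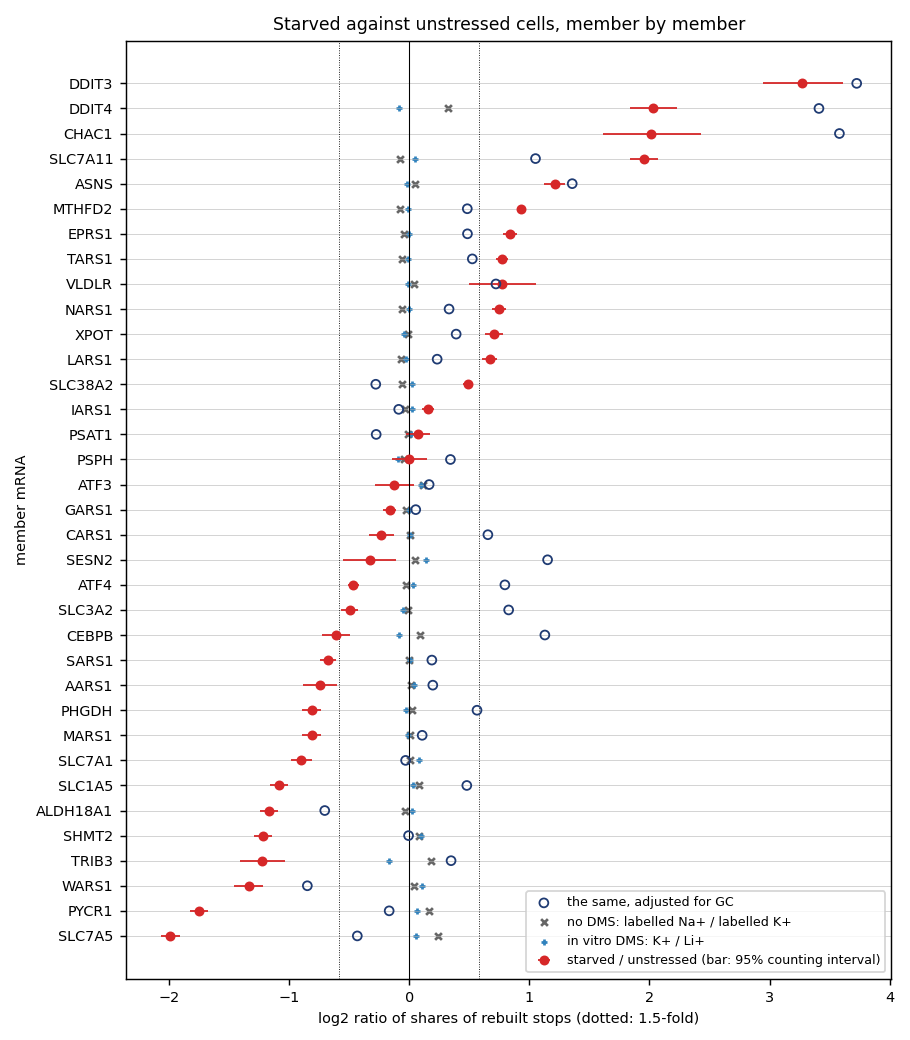
For 35 members, the log2 ratio of the share of rebuilt stops in starved over unstressed cells (red, bar for the 95% counting interval) is drawn with the GC-adjusted ratio (open circles) and, for the 33 members other than DDIT3 and CHAC1, the ratios of the untreated pair and the in vitro pair of libraries (crosses and plus signs). The 2 pairs without starvation stay between -0.17 and 0.32 in those 33, while starved over unstressed runs from -1.99 for SLC7A5 to 3.27 for DDIT3.

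Other genes of the pathway were compared by the same measure, again beside 22.9% higher and 40.2% lower among all transcripts, or 17.6% and 15.8% after the adjustment. Of 12 other cytosolic synthetases and proteins of the multisynthetase complex, 4 were at least 1.5-fold higher in starved cells and 6 lower. The higher ones included AIMP1 at 1.35 and RARS1 at 0.99 (log2), and the lower ones VARS1 at -2.69 and FARSA at -2.23. After the adjustment 0 were higher, and VARS1 and FARSA remained lower at -1.11 and -0.66. Of 17 mitochondrial synthetases, 14 were compared, with 2 higher and 7 lower, and after the adjustment 0 higher and 2 lower. Of 9 regulators upstream of ATF4, only IMPACT (0.89) was higher and GCN1 (-1.65), EIF2AK1 (-0.84) and PPP1R15A (-0.68) were lower. After the adjustment PPP1R15A was higher at 0.76, EIF2AK1 stayed lower at -0.72 and the other 7 were neither, IMPACT at 0.12 and GCN1 at -0.42 among them. EIF2AK4, which encodes GCN2, had a ratio of -0.04. Of 11 further response genes that could be compared, CEBPG (0.85) and SLC38A1 (0.80) were higher and 5 were lower, among them ATF5 at -1.99. After the adjustment 4 were higher, PCK2 (1.72), SLC6A9 (1.06), JDP2 (0.81) and CBS (0.67), and 0 were lower.

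RNA G-quadruplexes (rG4s) are stacks of G quartets that K+ stabilises and that halt RT at their 3′ edge. A stop was called strong where its count was at least 10-fold the transcript's mean (enrichment score E), in transcripts that averaged 1 stop per nucleotide or more. In the untreated library labelled Na+, 24 members passed this mean and held 28 strong stops, 26 of them at G. In the untreated library labelled K+, the same number of members held 5 strong stops, 2 of them at G. Over all matched transcripts, 6141 of 10809 strong stops were at G in the library labelled Na+ (56.8%) and 1876 of 7324 in the library labelled K+ (25.6%). The name of the deposited file of each of these 2 libraries carries the cation of the other one, so which was reverse transcribed in K+ cannot be told apart here. In total 28 stops at G were strong in either library, of which 24 were at least 2-fold stronger in the library labelled Na+, 1 in the library labelled K+ and 3 in neither.

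The 25 differing stops formed 13 regions in 7 mRNAs (SLC7A5, PYCR1, SLC1A5, ASNS, MARS1, XPOT and AARS1), of which 6 lay in 3′ untranslated regions (UTRs), 6 in coding sequence and 1 in a 5′ UTR. The 7 were among 24 members past the mean in both libraries, beside 39.0% of 3628 transcripts that held such a stop. Of the 2554 regions in all transcripts, 54.9% lay in 3′ UTRs, 30.9% in coding sequence and 12.9% in 5′ UTRs. In 12 of the 13 regions the 45 bases up to and including the stop held 4 G runs of 2 or more bases with loops of at most 9 bases. In 3 of them such runs had 3 or more Gs and loops of at most 7. The 30 bases that end at the strongest stop, from GENCODE transcripts on GRCh37, are printed for the strongest region of each mRNA with one at least 2-fold stronger in the library labelled Na+, apart from AARS1, and for a second region of SLC7A5. Runs of at least 2 Gs are in capitals, and the last base is the stop.
SLC7A5, chr16:87863683-87863712, minus strand, exon 10 of 10, 3′ UTR: acctgttacactGGGctGGGttGGGtaGGG
SLC7A5, chr16:87865978-87866007, minus strand, exon 10 of 10, 3′ UTR: GGaGGGGGtGGGGGatctGGGcaaGGtGGG
ASNS, chr7:97481502-97481531, minus strand, exon 14 of 14, 3′ UTR: gtgttGGatGGGGactgtGGGtagataGGG
PYCR1, chr17:79890356-79890385, minus strand, exon 7 of 7, 3′ UTR: cctgtgtGGGaGGGtGGttactgtGGGtGG
MARS1, chr12:57905484-57905513, plus strand, exon 12 of 21, coding: gagaagcgactGGaGGagtGGttGGGGaGG
SLC1A5, chr19:47282103-47282132, minus strand, exon 5 of 8, coding: tGGcaagatcgtGGagatGGaGGatgtGGG
XPOT, chr12:64798542-64798571, plus strand, exon 1 of 25, 5′ UTR: atctGGagtgcaGGctGGGaGGcGGGatGG
The AARS1 stop that was stronger in the library labelled K+ (11 stops against 0, exon 11 of 21, coding) had neither arrangement of G runs before it.

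The first SLC7A5 region carried the strongest of the 28 stops. It had 981 stops in the untreated library labelled Na+ and 10 in that labelled K+, an E of 468 and 5.40. With DMS in vitro it had 71 stops in K+ and 19 in Li+ (E of 51.7 and 10.6), and it was the only strong stop at G of the members in either in vitro library. In vivo it had 12 stops without starvation and 38 in starved cells (E of 12.1 and 91.9), although the SLC7A5 transcript itself had a lower share in starved cells. Its share of the transcript's stops was thus higher by 2.93 (log2, interval 1.96 to 4.00). With E taken relative to stops at U and G only and 1 count added to each library, the difference was 2.09. The stop lies 54 bases before the end of the transcript, and neither in vivo transcript mean reached 1 stop per nucleotide (0.996 and 0.413).

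**Figure D4:**
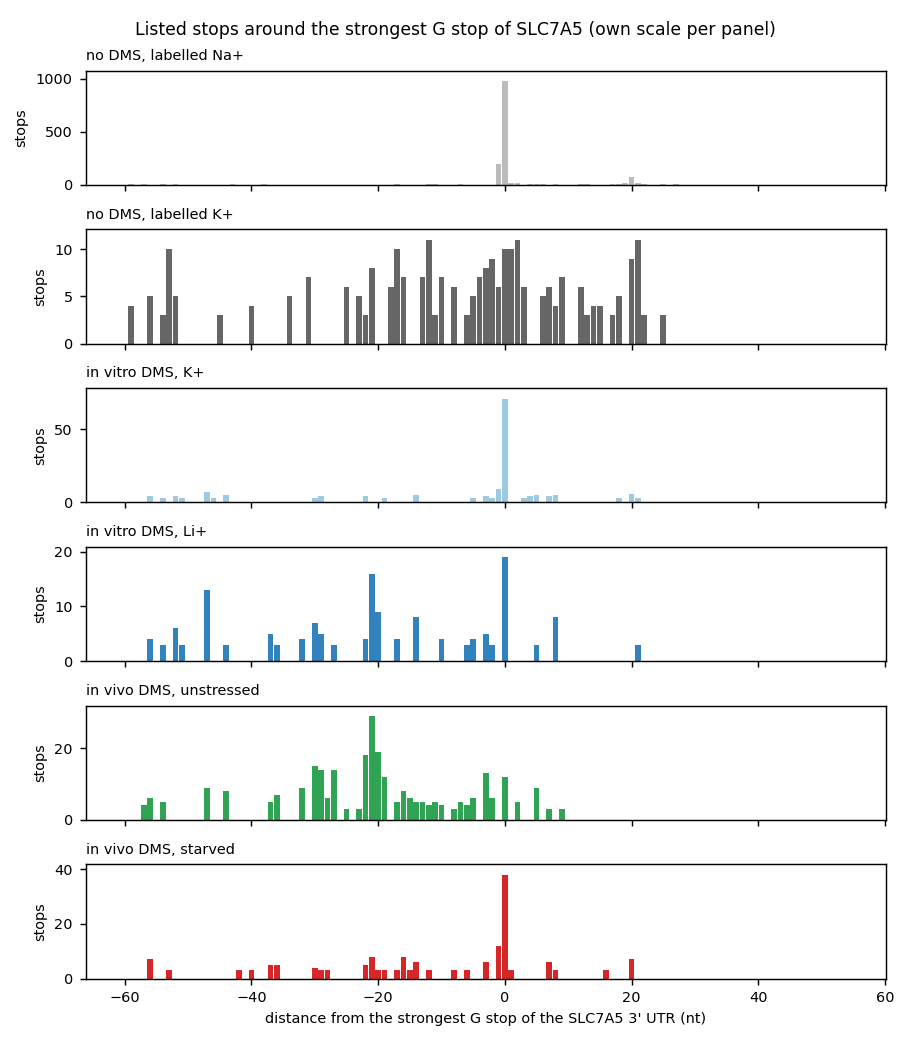
Listed RT stops in the 6 libraries are drawn against the distance in nt from the strongest G stop in the SLC7A5 3′ UTR, each panel with its own vertical scale. The stop at distance 0 reaches 981 in the untreated library labelled Na+ and 10 in that labelled K+, where it does not stand out, and it is the highest bar in starved cells at 38 but not in unstressed cells at 12.

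The ASNS stop, with 117 counts against 8 in the untreated libraries, had 3 in each in vitro library, 0 listed in unstressed cells and 17 in starved cells. The PYCR1 stop, with 190 against 5, had 5 and 7 in vitro, 0 listed in unstressed cells and 7 in starved cells. An unlisted nucleotide can hold any count below 3, so the unstressed counts of both are unknown and were taken as 0. On that assumption the lower bound of the starved over unstressed difference lay above 0 in both (0.06 and 1.56 on the log2 scale). No interval was calculated for a higher unlisted count, so whether these bounds would stay above 0 was not tested. Relative to the transcript's stops at G alone, and with unlisted counts again taken as 0, the lower bound was -0.57 for ASNS, 0.76 for PYCR1 and 1.16 for the SLC7A5 stop. The MARS1 stop had counts of 172 and 11 without DMS, 10 and 0 in vitro, 3 in unstressed cells and 4 in starved cells. The XPOT stop had 67 stops in the untreated library labelled Na+ and 0 in each of the others, and the SLC1A5 stop had 100, 7, 5, 3, 3 and 0. Over the 13 regions, 4 were listed in unstressed and 5 in starved cells. With unlisted counts taken as 0, 3 had an interval above 0 (2 relative to stops at G) and 0 had one below 0. Of these 3, only the SLC7A5 stop was listed in both in vivo libraries. The other strongest stops were listed in neither, so no value for the group could be given at this depth. The paper's in vivo folding score is E in vivo less E in Li+, over E in K+ less E in Li+. It was calculated for the 2 strongest stops listed in both in vitro libraries with E at least 2-fold higher in K+. For SLC7A5 it was 0.04 in unstressed and 1.98 in starved cells, and for SLC1A5 0.64 and -0.82. The SLC1A5 scores rest on 3 and 0 listed stops.

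Of the other strong stops at G with DMS, 1 was in unstressed cells (SLC38A2, 19 stops) and 3 were in starved cells, in SLC3A2 with 24, IARS1 with 27 and LARS1 with 19 stops. Only 13 members passed the mean of 1 in unstressed cells against 18 in starved cells, so these numbers cannot be set against each other. LARS1, with 10 stops at this nucleotide in unstressed cells, had a mean of 0.617 there and could not be called. The counts at these 4 nucleotides in the untreated libraries were between 5 and 20.

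DMS methylates A and C at their base-pairing face, where RT stops. In the 29 members with at least 100 listed stops in each library, stops at A or C had a median share of 51.3% and 51.1% without DMS, 86.9% and 85.0% in the K+ and Li+ in vitro libraries, 92.5% in unstressed cells and 81.1% in starved cells. Starved cells had the lower share in 28 of the 29, and in 5676 of all 5804 such transcripts, whose medians were 94.6% and 85.2%. The exception was SLC7A11, with 53.2% in unstressed cells and 85.0% in starved cells. On rebuilt totals, in the 25 of these members with all 4 bases listed in every library, the medians were 83.3% in unstressed cells and 74.1% in starved cells, and the share was lower with starvation in all 25, SLC7A11 included. On listed stops of the 29 members, the median share of G rose from 5.57% without starvation to 14.5% with it, and that of C fell from 21.5% to 13.2%. Shares of G or C alone were not calculated on rebuilt totals, so the part of the listing limit in these shifts was not tested. In ATF4, A or C took 87.7% of 7041 stops in unstressed and 75.9% of 8670 in starved cells, and in MTHFD2 90.8% of 6586 and 76.1% of 22927. Per base present, the median of C relative to A stops was 0.331 in unstressed and 0.220 in starved cells, lower in 27 of 29 members and in 5203 of 5573 transcripts.

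**Figure D5:**
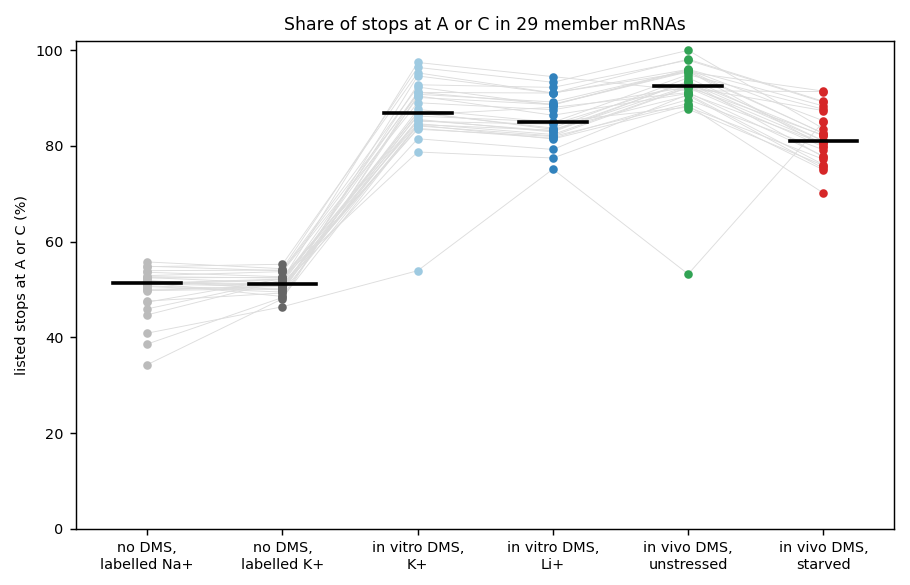
The share of listed stops at A or C, in %, is plotted for 29 members in the 6 libraries, with grey lines joining the values of 1 member and black bars for medians. The medians are 51.3% and 51.1% without DMS, 86.9% and 85.0% in vitro, 92.5% in unstressed and 81.1% in starved cells.

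Strong stops in the in vivo libraries were mostly at A. The 13 members that passed the mean in unstressed cells held 267 at A, 37 at C, 1 at G and 0 at U, and the 18 that passed in starved cells held 271, 6, 3 and 0. Over all matched transcripts, the 28782 strong stops in unstressed cells had 24000 at A, 4414 at C and 315 at G. The 23921 in starved cells had 21982, 1015 and 830. EPRS1, LARS1 and XPOT, with 42, 28 and 45 strong A stops in starved cells, were below the mean in unstressed cells. In the 11 members that averaged 1 stop per nucleotide or more in each of the 6 libraries, 65 strong A stops were shared by the in vivo libraries, 26.9% of the 242 in unstressed and 49.6% of the 131 in starved cells. Over the 1356 transcripts with the same minimum, the shared stops were 35.4% and 57.3%. IARS1 had the most, 66 in unstressed and 48 in starved cells. The Spearman correlation of counts over A nucleotides, which share depth and sequence, had a median over these members of 0.49 between the in vivo libraries, 0.67 between the in vitro libraries and 0.35 between unstressed cells and in vitro K+.

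Stops also lay further toward the 3′ end in the in vivo libraries. The median share of a member's stops within coding sequence was 63.4% to 65.6% in the 4 libraries made from RNA outside cells, 36.7% in unstressed and 31.3% in starved cells, and that in the 3′ UTR was 27.7% to 29.2%, 63.3% and 64.3%. Over 5485 transcripts, the median coding share was 50.0% to 52.9% outside cells, 24.7% in unstressed cells and 25.1% in starved cells. Between the in vivo libraries the coding share was higher in starved cells in 12 of 29 members and in 2667 of the 5485 transcripts. In ATF4, whose 3′ UTR is short, the coding share was 81.4%, 81.4%, 81.6% and 82.4% outside cells, 84.4% in unstressed and 82.2% in starved cells. The 5′ UTR of ATF4, which holds its upstream open reading frames, took 12.2% to 12.7% of the stops outside cells, 7.61% in unstressed and 7.35% in starved cells.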

How the data were processed

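Poly(A)+ RNA was fragmented, size-selected and reverse transcribed, and stops were sequenced. By the methods, a stop was counted only from a read with 1 exact place in the hg19 transcriptome (Bowtie). Such reads no longer held adapters or barcodes, and their duplicates had been removed (SAMtools). Versions are not given in the sources used here. The authors deposited, for nucleotides with 3 stops or more, the RT stop count. The deposited ratio is that count over the mean count of the same base in the transcript. Each of the 6 libraries was 1 condition. The members and gene lists were chosen with earlier results of these data known. Values are given for ATF4, ATF3, DDIT3, DDIT4, TRIB3, ASNS, CHAC1 and SESN2, members past 1.5-fold and members with differing strong G stops, and other genes are named from the lists.

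Transcripts with at least 15 listed positions were matched to GENCODE 44 on GRCh37 (10397 matched, 35 of them members). Base means, the summed count over the summed ratio, times base numbers gave rebuilt totals for bases with a listed position, and comparisons used bases listed in both libraries. The rebuilt totals and their ratios were checked on simulated data in which both libraries had the same stop profile. The GC adjustment and the stop calls were not simulated. Ratios needed at least 100 stops in both in vivo libraries together. Listed stops were 12999691 to 35371061 per library. Ratio intervals are exact conditional binomial at 95%. PCR duplicates beyond those removed are not covered. GC adjustment used lowess (fraction 0.3). Regions merged stops within 30 nt. Python 3.11.15, pandas 2.3.3, SciPy 1.17.1 and statsmodels 0.14.6 were used.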

Additional observations from a re-analysis of the deposited data

How the results depend on the processing

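No paired analysis was possible because each condition was 1 library. Of 107 alternative values, 56 stayed within 1.5-fold of the reported count or within the interval of the reported median. Single members whose sign turned with the GC adjustment or with the scale, such as ATF4, CEBPB, TRIB3 and SESN2, have their values in the report. The reported counts on listed stops, 14 higher and 14 lower, became 2 higher with only positions listed in both libraries and 8 higher at 2-fold, and 6 lower with stops at G and U only. They became 3 lower with the listed ratio adjusted for GC, 2 lower with rebuilt totals adjusted for GC and 1 lower with GC and length, all added after seeing the data. The SD of the ratio over members was 0.24 and 0.22 on listed stops in the untreated and in vitro pairs, and 0.0933 and 0.0636 on rebuilt totals. Strong G stops (26, 2, 1, 1, 1 and 3 in the untreated libraries labelled Na+ and K+, in vitro K+ and Li+, unstressed and starved) became 120, 110, 15, 14, 26 and 103 at an E of at least 5, and 13, 0, 1, 0, 0 and 0 at 20. With the deposited ratio they were 22, 2, 3, 7, 39 and 23, with a mean of at least 0.25 they were 59, 12, 4, 3, 15 and 63, and with a mean of at least 2 they were 23, 1, 0, 0, 0 and 1. The difference between the untreated libraries (24 stops stronger in the one labelled Na+, 1 in that labelled K+) therefore rests on the threshold of 10 or above: it was 68 against 53 at 5, 13 against 0 at 20, 53 against 8 at a mean of 0.25 and 13 against 0 at a mean of 2. With the opposite assignment of the cations, 24 stops instead of 1 were stronger in K+. On rebuilt totals the median share of A or C was 76.6% and 76.8% in vitro, 83.8% in unstressed and 74.1% in starved cells, and with only the 25 members that had all 4 bases listed, added after seeing the data, it was 76.5%, 76.8%, 83.3% and 74.1%. The cause of these shifts was not tested. Depth limits DDIT3 to stops at A and CHAC1 to stops at C.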
